A study of Mus musculus with 12 samples.

Results

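Chemokine ligands are small secreted or membrane-anchored proteins that steer leukocytes through G protein-coupled receptors, and macrophages are one of their main sources. The genes described here are those in the count table whose Ensembl identifier belongs to a protein-coding mouse symbol built from Ccl or Cxcl and a number, with *Pf4*, *Ppbp*, *Cx3cl1* and *Xcl1* added. They number 39 of the 48526 genes listed. Of these, 25 had enough reads to be tested (at least 10 counts in at least 3 libraries), 12 had no read in any library, and *Ccl28* and *Cxcl5* had too few. *Cxcl11*, annotated as a polymorphic pseudogene, is not a member.

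The receptors that a chemokine engages decide which cells it attracts. CCR2 ligands such as *Ccl2* bring in monocytes, CCR1 ligands such as *Ccl5* monocytes and T cells, CXCR2 ligands neutrophils, CXCR3 ligands activated T cells and NK cells, and CCR4 ligands Th2 and regulatory T cells. In macrophages, *Ccl17*, *Ccl22* and *Ccl24* are widely used as marks of alternative activation by IL-4, which acts through STAT6, whereas the CXCR2 and CXCR3 ligands are known from responses to microbial products and interferons. Wnt3a is a secreted ligand of the canonical Wnt pathway, which works through β-catenin and the TCF and LEF factors.

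The macrophages were bone marrow-derived macrophages (BMDMs), grown from the whole marrow of 3 female C57Bl/6J mice in medium with mCSF and used on day 7. Marrow donors for such cultures were 6 to 20 weeks old, with no age given for these mice, and no transgene or deletion is named for any group. Each mouse gave 1 sample to each of 4 groups: untreated, 100 pg/mL IL-4 for 16 hr, 100 ng/mL Wnt3a for 16 hr, or both agents at these doses for 16 hr. The Wnt3a and Wnt3a+IL4 columns of a mouse share reads, because in each of the 3 mice no gene of 48526 had a Wnt3a count below 1 time or above 2 times its Wnt3a+IL4 count. Each pair of columns was therefore solved into the part called difference (the Wnt3a minus the Wnt3a+IL4 column) and the part called remainder (2 times the Wnt3a+IL4 column minus the Wnt3a column). Both come from Wnt3a-treated cells, and the labels do not say which of them also had IL-4. Under the first assignment the remainder is the Wnt3a+IL4 culture, and under the other assignment the difference is. Neither was chosen from the values.

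Libraries without Wnt3a held 13342492 to 17113982 counts each, those of the difference 14171994 to 17453377 and those of the remainder 15707213 to 16998867. Levels are given as CPM, counts scaled to the library size after edgeR's TMM normalization, and errors are the SD over the 3 mice. Differences are log2 fold changes with their standard error (SE), tested by edgeR's quasi-likelihood test over 12421 genes in a single fit of the 12 libraries. A gene is called higher or lower at a Benjamini-Hochberg adjusted p under 0.05. Where every library of a group had 3 counts or fewer, the fold is a lower bound set against 3 counts per library, which covers counting error only. The libraries are bulk RNA, so fewer expressing cells and less RNA per cell cannot be told apart.

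The promoters of 6 members are shown because they belong to genes that lie side by side or share a receptor and moved differently, or because they belong to the CCR4 ligands. Not every such promoter is shown, and those of *Cxcl9*, *Ccl3*, *Ccl9*, *Ccl6* and *Cx3cl1* are among those left out. RefSeq (GRCm38.p6) gave 35 promoters for 29 of the 39 members, each 250 bases before to 50 bases after an annotated start. Promoters of *Ccl5*, *Ccl2*, *Ccl4*, *Ccl7*, *Ccl24* and *Cxcl16*, among others, were not in the table used here. Capitals mark matches, on either strand, to 6 short motifs, namely the NF-kappaB motif (kappaB), the STAT motifs TTCNNNNGAA and TTCNNNGAA, the interferon-response motif GAAANNGAAA, the AP-1 motif TGANTCA and the TCF/LEF motif ATCAAAG. All are written 5′ to 3′ in the direction of transcription.
Cxcl3: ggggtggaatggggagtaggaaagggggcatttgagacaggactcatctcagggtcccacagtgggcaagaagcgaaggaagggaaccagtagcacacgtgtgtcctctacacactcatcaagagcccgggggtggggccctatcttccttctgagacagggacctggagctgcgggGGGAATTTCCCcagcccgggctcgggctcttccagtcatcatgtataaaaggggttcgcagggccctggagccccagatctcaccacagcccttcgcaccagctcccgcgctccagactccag
Cxcl2: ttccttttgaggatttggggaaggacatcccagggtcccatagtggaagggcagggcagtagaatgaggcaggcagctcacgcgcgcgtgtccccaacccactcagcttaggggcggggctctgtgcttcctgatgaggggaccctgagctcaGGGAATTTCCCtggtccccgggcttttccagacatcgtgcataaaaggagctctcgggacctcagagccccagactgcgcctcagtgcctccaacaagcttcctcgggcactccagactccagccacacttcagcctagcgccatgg
Cxcl1: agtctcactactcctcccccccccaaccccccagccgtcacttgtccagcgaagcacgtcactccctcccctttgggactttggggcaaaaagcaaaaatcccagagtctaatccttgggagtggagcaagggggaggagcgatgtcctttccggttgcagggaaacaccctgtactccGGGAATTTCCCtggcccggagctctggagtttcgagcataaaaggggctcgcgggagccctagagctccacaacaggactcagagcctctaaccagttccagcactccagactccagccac
Cxcl10: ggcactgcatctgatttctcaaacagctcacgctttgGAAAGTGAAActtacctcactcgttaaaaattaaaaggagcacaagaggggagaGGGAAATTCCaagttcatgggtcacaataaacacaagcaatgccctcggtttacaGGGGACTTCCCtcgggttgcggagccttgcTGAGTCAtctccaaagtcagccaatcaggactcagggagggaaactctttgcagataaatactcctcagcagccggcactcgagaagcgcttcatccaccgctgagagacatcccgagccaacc
Ccl17: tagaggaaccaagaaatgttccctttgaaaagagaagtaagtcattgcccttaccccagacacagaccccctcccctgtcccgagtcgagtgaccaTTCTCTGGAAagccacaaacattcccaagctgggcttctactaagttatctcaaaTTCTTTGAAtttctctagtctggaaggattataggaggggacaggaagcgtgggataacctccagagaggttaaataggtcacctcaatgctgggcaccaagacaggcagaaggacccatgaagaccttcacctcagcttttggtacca
Ccl22: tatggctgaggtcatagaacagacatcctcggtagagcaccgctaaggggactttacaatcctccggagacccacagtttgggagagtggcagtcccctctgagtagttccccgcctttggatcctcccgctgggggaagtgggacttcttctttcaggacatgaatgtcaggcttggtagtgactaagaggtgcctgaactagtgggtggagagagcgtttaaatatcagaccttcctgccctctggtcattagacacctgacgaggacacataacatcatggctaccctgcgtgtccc

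The windows are chr5:90785851-90786150 for *Cxcl3*, chr5:90903649-90903948 for *Cxcl2*, chr5:90890995-90891294 for *Cxcl1*, chr8:94810203-94810502 for *Ccl17* and chr8:94745434-94745733 for *Ccl22*, all on the plus strand, and chr5:92348840-92349139 for *Cxcl10* on the minus strand. *Cxcl3*, *Cxcl2* and *Cxcl1* each hold the same kappaB match, GGGAATTTCC, starting at -73, -97 and -71 from the annotated start, with another match on the opposite strand shifted by a base. The *Cxcl10* window holds kappaB matches GGGAAATTCC at -159 and GGGGACTTCC at -104, overlapped by another a base further on, and GAAAGTGAAA at -213 and TGAGTCA at -74. The window of *Cxcl9*, not shown, holds TGACTCA at +32 and no other match to the 6 motifs. *Ccl17* is the single member with a TTCNNNNGAA match (TTCTCTGGAA at -154), and it also holds TTCTTTGAA at -99. The *Ccl22* window holds none of the 6 motifs. A kappaB match was present in 8 of 35 member promoters (22.9%) against 8.46% of all 32851 promoters, TGANTCA in 22.9% against 7.81%, GAAANNGAAA in 8.57% against 3.44%, TTCNNNGAA in 5.71% against 8.3%, TTCNNNNGAA in 2.86% against 6.95% and ATCAAAG in 2.86%, the *Cxcl12* promoter alone, against 3.73%. These are matches of letters and were not tested.

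Chemokine ligand genes took a larger share of all reads in both Wnt3a-treated parts than in the other cells. The share was 0.145%, 0.130% and 0.123% of all counts in untreated cells of mouse 1, 2 and 3, and 0.151%, 0.143% and 0.131% with IL-4. It was 0.445%, 0.399% and 0.379% in the difference and 0.447%, 0.440% and 0.366% in the remainder, so that the lowest Wnt3a-treated library lay above the highest of the other 6. *Ccl5* made up most of this gap. It held between 0.837% and 1.02% of the family's counts in the untreated and IL-4 libraries, between 50.8% and 57.9% in the difference and between 42.4% and 54.8% in the remainder. Without *Ccl5* the family's share was 0.122% to 0.143% in untreated cells, 0.130% to 0.150% with IL-4, 0.168% to 0.219% in the difference and 0.199% to 0.249% in the remainder.

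**Figure D1:**
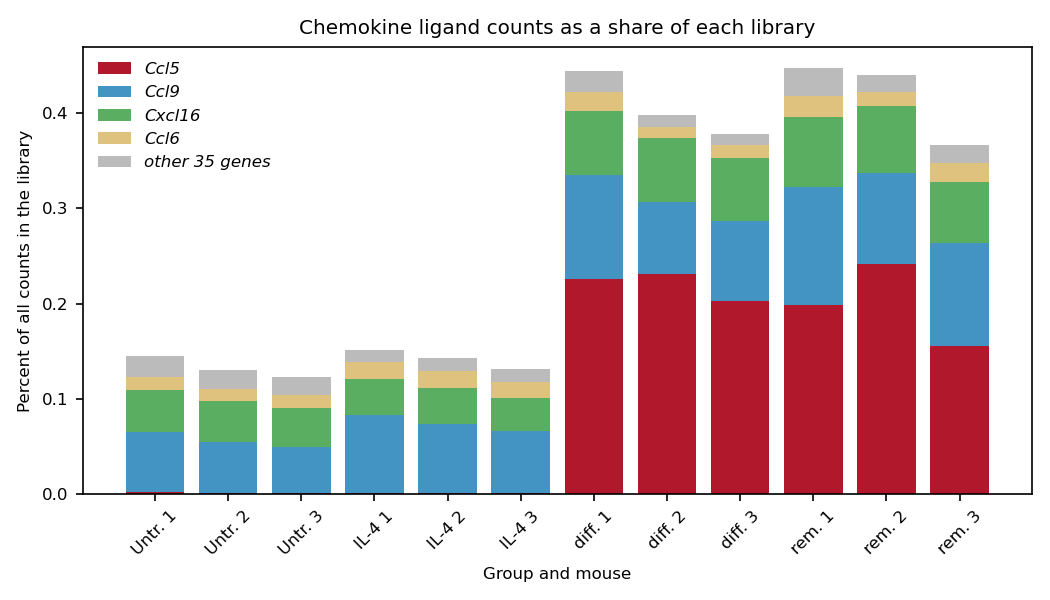
Counts of the 39 chemokine ligand genes as a percent of all counts (vertical axis) in each of the 12 libraries (horizontal axis, group and mouse), split into *Ccl5*, *Ccl9*, *Cxcl16*, *Ccl6* and the other 35 genes. The 6 Wnt3a-treated libraries reach 0.366% to 0.447%, with a *Ccl5* block that is barely visible in the other 6 libraries, which reach 0.123% to 0.151%.

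Levels between genes can be compared per length of exon. In untreated cells the highest members were *Ccl9* at 172 ± 18.2 CPM per kb (SD, n = 3), *Cxcl16* at 135 ± 4.94 CPM per kb, *Ccl3* at 96.5 ± 2.38 CPM per kb, *Ccl4* at 75.1 ± 2.86 CPM per kb and *Ccl6* at 71.9 ± 3.18 CPM per kb. The ranges of *Ccl4* and *Ccl6* overlapped within their SD. In the remainder the order was *Ccl5* at 2126 ± 435 CPM per kb, *Ccl9* at 372 ± 56.1 CPM per kb, *Cxcl16* at 237 ± 20.5 CPM per kb, then *Ccl6* at 110.5 ± 21.6 and *Pf4* at 110.2 ± 41.1 CPM per kb, which did not differ beyond their spread. *Ccl5* led the difference as well, at 2333 ± 149.8 CPM per kb.

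IL-4 alone lowered few members, whereas most tested members differed from untreated cells in the Wnt3a-treated parts. With IL-4, 3 of 25 members were called, 0 higher (2.31% of all genes) and 3 lower (1.09%), against 3.4% of all genes tested in either direction. With the mouse as replicate block, or by DESeq2, 5 were called, since *Ccl22* and *Ccl9* were then called higher, and without mouse 3 only 1, *Ccl3*, was. In the difference 13 of 25 were called, 7 higher (11.8% of all genes) and 6 lower (11.4%), against 23.2% in either direction. In the remainder 21 of 25 were called, 14 higher (13.6% of all genes) and 7 lower (11.7%), against 25.3%. Between the parts, 6 members were called, 5 higher (2.87% of all genes) and 1 lower (2.38%) in the remainder, against 5.25%, and without mouse 3 only 1 of them, *Ccl8*, was called. The median log2 fold change over the 25 members was -0.17 with IL-4 (-0.00 over all genes tested), 0.20 in the difference (-0.01 over all genes), 0.81 in the remainder (-0.02 over all genes) and 0.31 between the parts (0.01 over all genes). These 4 comparisons share the untreated libraries or the parts, so they are not independent of each other. *Ccl8*, *Ccl24*, *Ccl12* and *Ccl17* had enough reads to be tested only because of the remainder, and *Cxcl12*, *Cxcl1* and *Ppbp* only because of the untreated cells, so a call of these members against that group was favoured by the filter itself. Over the other 18 members, 3 were called with IL-4, 12 in the difference, 16 in the remainder and 3 between the parts. The 18 still include *Cxcl3* and *Cxcl9*, which were tested only because of their reads in the parts. Their calls as higher in the difference and the remainder than in untreated cells were therefore favoured by the filter too.

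**Figure D2:**
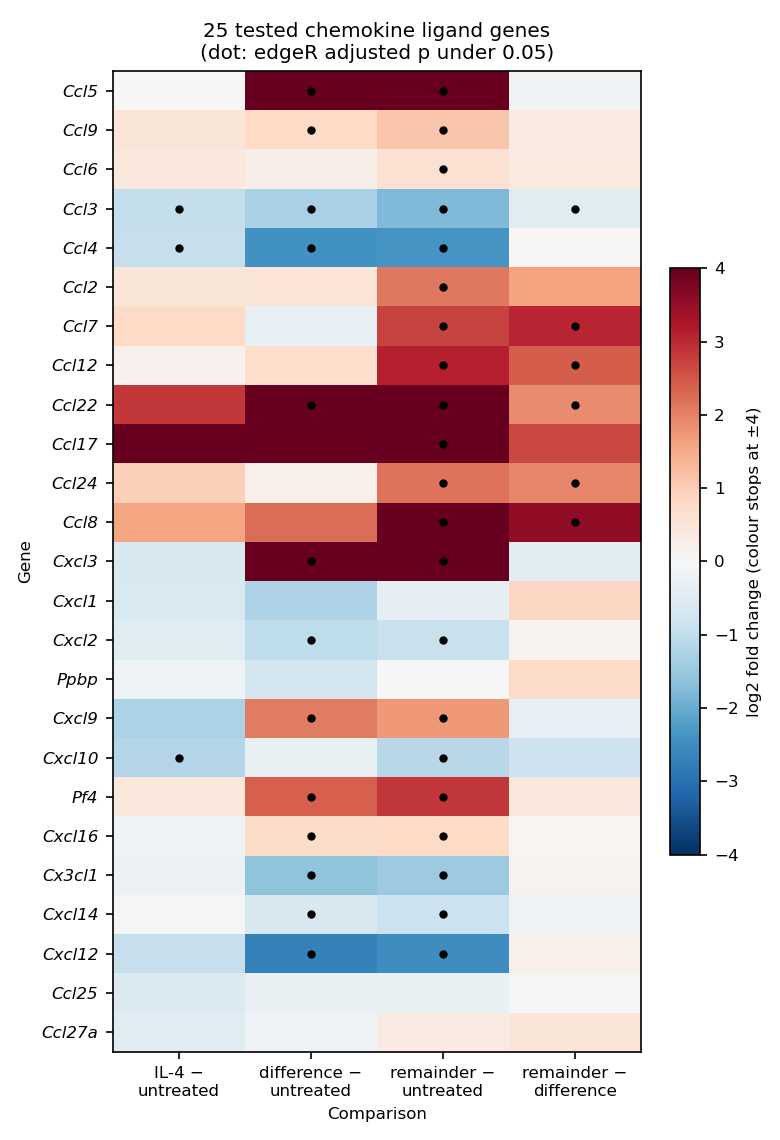
Log2 fold changes (colour, on a scale that stops at 4 log2 units either way) of the 25 tested chemokine ligand genes, in rows by receptor group, in 4 comparisons, in columns, with a dot where edgeR's adjusted p was under 0.05. Dots are few for IL-4 and fill most of the remainder column, and *Ccl7*, *Ccl12*, *Ccl22*, *Ccl24* and *Ccl8* are the members with both a red remainder minus difference cell and a dot there. The colours of *Ccl17* against untreated cells have no size of their own, since its untreated libraries are at 0. Those of *Ccl8* and *Cxcl3* against untreated cells, *Cxcl12* in the parts and *Cxcl9* with IL-4 are not measured sizes either. In each, a group compared had 3 counts or fewer in every library.

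The largest rise among the CC ligands from *Ccl3* to *Ccl9* that lie side by side on chromosome 11 was that of *Ccl5* (RANTES, an attractant of T cells and monocytes, ENSMUSG00000035042, mm10 chr11:83525778-83530518, minus strand). It stood at 13.0, 13.2 and 10.4 CPM in untreated cells of mouse 1, 2 and 3 and at 13.2, 12 and 11 CPM with IL-4, but at 2258, 2373 and 2087 CPM in the difference and 2090.4, 2432 and 1602 CPM in the remainder. The 6 Wnt3a-treated libraries lay far above the other 6, and the parts overlapped each other. The rise was 183-fold in the difference, a log2 fold change of 7.52 (SE 0.18, adjusted p = 5.4e-12) from edgeR, and 167-fold in the remainder, 7.38 (SE 0.18, adjusted p = 6.5e-12). With IL-4 alone the log2 fold change was -0.02 (SE 0.16), and between the parts it was -0.13 (SE 0.13, adjusted p = 0.63 from edgeR).

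*Ccl3* and *Ccl4*, the neighbouring genes of the macrophage inflammatory proteins, which attract monocytes and T cells, fell. *Ccl3* (chr11:83647844-83649355) stood at 75.6, 74.2 and 72.0 CPM in untreated cells, 35.8, 39.5 and 39.7 CPM with IL-4, 37.1, 26.3 and 26.8 CPM in the difference and 22.8, 19.8 and 22.0 CPM in the remainder. *Ccl4* (chr11:83662584-83664683) stood at 51.5, 49.3 and 47.8 CPM in untreated cells, 22.1, 28.8 and 27.7 CPM with IL-4, 10.6, 8.18 and 8.72 CPM in the difference and 10.3, 8.17 and 10.2 CPM in the remainder. For both genes the untreated libraries lay above all others, and the remainder of each mouse lay below its IL-4 library. IL-4 alone lowered *Ccl3* by 0.95 on the log2 scale (adjusted p = 0.00030 from edgeR) and *Ccl4* by 0.92 (adjusted p = 0.00064 from edgeR). The log2 fold changes of *Ccl3* were -1.30 in the difference and, in the remainder, -1.78, while those of *Ccl4* were -2.43 and -2.37 (adjusted p at most 2.7e-06 from edgeR). *Ccl3* was lower in the remainder than in the difference, -0.48 (SE 0.12), but this call was lost with the mouse as replicate block (adjusted p = 0.053 from edgeR) and without mouse 1, 2 or 3 (adjusted p = 0.13, 0.054 and 0.27 from edgeR). The IL-4 call of *Ccl4* was lost without mouse 3 (-0.99, adjusted p = 0.062 from edgeR).

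The CCR1 ligands *Ccl9* and *Ccl6*, which myeloid cells make constitutively, lie between *Ccl5* and *Ccl3* in the same 138.9 kb of chromosome 11 (chr11:83525778-83664683). *Ccl9* stood at 579.8, 522 and 469 CPM in untreated cells, 838, 724 and 629 CPM with IL-4, 1091, 782 and 862 CPM in the difference and 1311, 971 and 1117 CPM in the remainder. Its untreated libraries lay below all others. It was higher than untreated cells in the difference, 0.80 (SE 0.15, adjusted p = 0.0011) from edgeR, and in the remainder, 1.11 (SE 0.15, adjusted p = 5.8e-05), and its IL-4 value was 0.48 (adjusted p = 0.10 from edgeR), a call with the mouse as replicate block (adjusted p = 0.016 from edgeR). DESeq2 also called *Ccl9* higher with IL-4 (adjusted p = 0.030). *Ccl6* was called in the remainder alone, 0.62 (SE 0.18, adjusted p = 0.019) from edgeR, and not without mouse 3 (adjusted p = 0.17 from edgeR). The 5 genes of this stretch thus split into *Ccl5*, *Ccl9* and *Ccl6*, higher in the remainder, and *Ccl3* and *Ccl4*, lower in it.

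*Cxcl3*, a CXCR2 ligand that attracts neutrophils (chr5:90786103-90789600), went from near absence to a clear signal in both parts. It had 3, 3 and 1 counts in untreated cells of mouse 1, 2 and 3 and 0, 1 and 3 with IL-4, against 239, 116 and 76 counts in the difference and 167, 80 and 69 in the remainder. Every Wnt3a-treated library thus had at least 69 counts where the others had at most 3. It was at least 48.5-fold higher than untreated cells in the difference (adjusted p = 6.7e-06 from edgeR) and at least 36.5-fold higher in the remainder (adjusted p = 1.4e-05 from edgeR). *Cxcl3* was tested only because of its reads in the parts, so these calls were favoured by the filter.

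The other CXCR2 ligands tested were not called higher in either part. *Cxcl1* and *Cxcl2* lie within the same 146.6 kb of chromosome 5 (chr5:90759360-90905938) and carry the same kappaB match in the promoters shown above. *Cxcl2* stood at 5.54, 4.44 and 2.38 CPM in untreated cells, 3.0, 3.0 and 2.89 CPM with IL-4, 2.63, 1.53 and 1.89 CPM in the difference and 3.04, 1.78 and 1.91 CPM in the remainder. The groups overlapped, with the untreated library of mouse 3 below 1 library of each part. It was called lower in the difference, -1.03 (SE 0.31, adjusted p = 0.026) from edgeR, and in the remainder, -0.88 (SE 0.30, adjusted p = 0.047), but in neither without mouse 1, 2 or 3 (adjusted p = 0.059, 0.18 and 0.050 in the difference and 0.081, 0.19 and 0.087 in the remainder, from edgeR). *Cxcl1*, at 1 to 15 counts a library, and *Ppbp*, at 1 to 15, were not called in any comparison, which at such counts does not show that their levels were alike. Of the 50-base stretches of *Cxcl2* transcripts, 5.84% also occur in other genes, and of those of *Cxcl3*, 4.29%, so some of their reads are uncertain.

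*Pf4* (platelet factor 4, first known from platelet granules, chr5:90772435-90773383) lies in the same stretch and rose in both parts. It stood at 10.9, 10.6 and 11.8 CPM in untreated cells, 17.9, 11.8 and 15.2 CPM with IL-4, 83.3, 46.4 and 44.1 CPM in the difference and 112, 53.2 and 73.5 CPM in the remainder. Every Wnt3a-treated library lay above every untreated and IL-4 library. The log2 fold change was 2.39 (SE 0.28, adjusted p = 3.0e-05) in the difference and 2.84 (SE 0.29, adjusted p = 5.3e-06) in the remainder, from edgeR. The summed level of 8 platelet and megakaryocyte markers was lower in these libraries, at 2.80 to 4.8 CPM in the difference and 4.30 to 5.53 CPM in the remainder, than in untreated cells, at 6.50 to 8.98 CPM. Most of the untreated sum was *Treml1*, with means of 4.64, 4.71, 1.59 and 2.73 CPM in the 4 groups. *Tubb1* did not fall, at 0.971, 1.20, 1.10 and 1.02 CPM. The part of such cells in the level of *Pf4* was not tested. Of the 3 tested markers, 0 were called higher in either part and 1 lower in the difference, and *Gp1bb* and *Gp9* had 3 counts or fewer in every library.

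**Figure D3:**
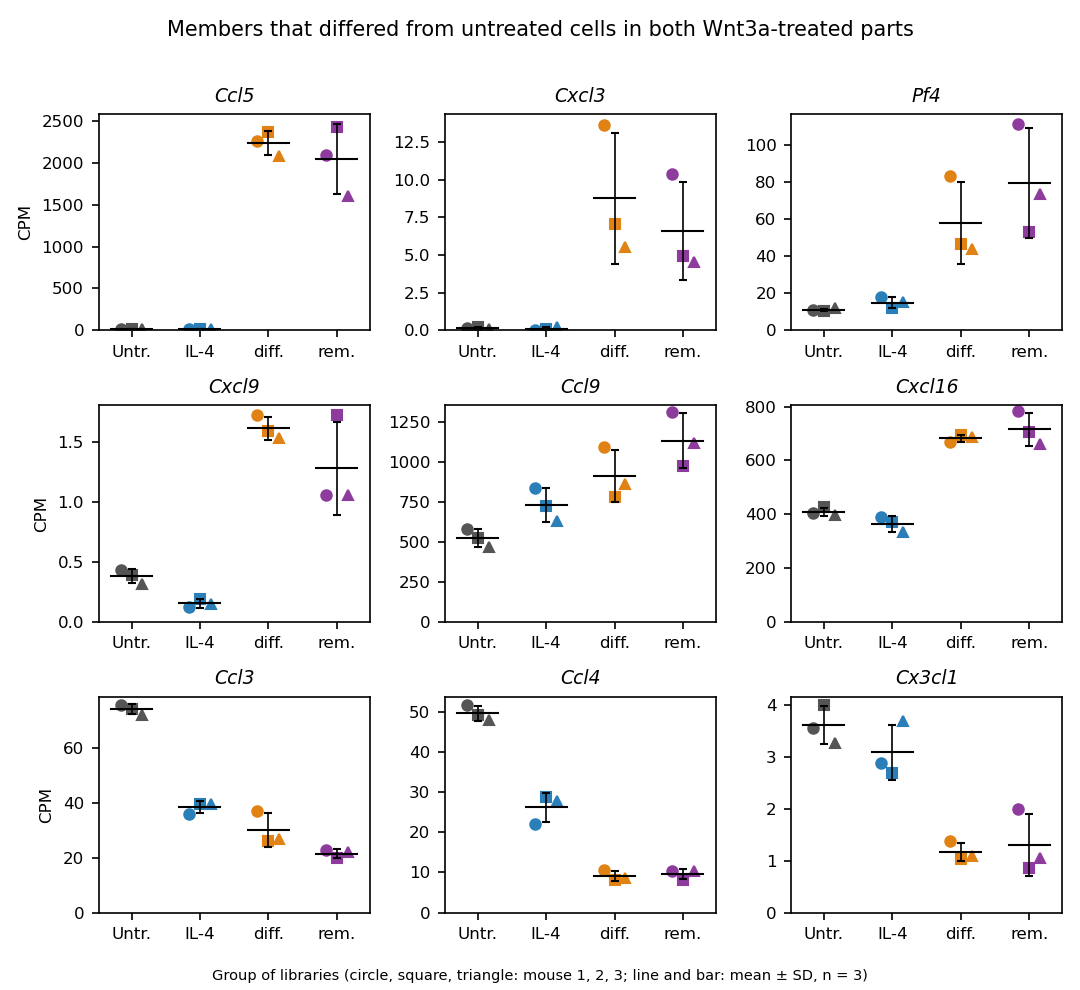
CPM (vertical axes, from 0, a scale for each gene) of 9 genes called in the same direction in both Wnt3a-treated parts against untreated cells, in 4 groups (Untr., untreated; diff., difference; rem., remainder), with a point per mouse and the mean ± SD (n = 3) as line and bar. *Ccl5* runs from at most 13.2 CPM to between 1602 and 2432 CPM, and *Ccl3*, *Ccl4* and *Cx3cl1* fall.

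Membrane-anchored chemokines also act as adhesion molecules. *Cxcl16* (the CXCR6 ligand, also a scavenger receptor for oxidised lipid) stood at 404, 425 and 396 CPM in untreated cells, 389, 369 and 333 CPM with IL-4, 668, 693 and 685 CPM in the difference and 782, 705 and 659.6 CPM in the remainder. It was higher by 0.74 (SE 0.08) and 0.81 (SE 0.08) on the log2 scale (adjusted p = 1.6e-05 and 6.0e-06 from edgeR), and 18.3% of its exon bases overlap *Zmynd15* on the other strand, whose reads cannot be told apart without strand. *Cx3cl1* (fractalkine, the ligand of CX3CR1, chr8:94772009-94782427) stood at 3.55, 3.99 and 3.26 CPM in untreated cells, 2.88, 2.68 and 3.68 CPM with IL-4, 1.37, 1.04 and 1.09 CPM in the difference and 1.99, 0.860 and 1.05 CPM in the remainder. Its Wnt3a-treated libraries all lay below the untreated and IL-4 ones, with log2 fold changes of -1.61 (SE 0.28, adjusted p = 0.00075) and -1.46 (SE 0.27, adjusted p = 0.0012) from edgeR.

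*Cx3cl1* lies between *Ccl22* and *Ccl17* in 66.4 kb of chromosome 8 (chr8:94745590-94812036), and those neighbours rose. *Ccl22* (a CCR4 ligand, ENSMUSG00000031779, chr8:94745590-94751699) stood at 0.430, 0.257 and 0.314 CPM in untreated cells, 2.40, 3.71 and 1.23 CPM with IL-4, 26.4, 8.67 and 6.40 CPM in the difference and 83.6, 37.7 and 33.4 CPM in the remainder. The 4 groups did not overlap, and in every mouse the order was untreated, IL-4, difference, remainder. The rise over untreated cells was 40.3-fold in the difference, 5.33 (SE 0.75, adjusted p = 0.00014; 4.69 without mouse 1) from edgeR, and 149-fold in the remainder, 7.22 (SE 0.71, adjusted p = 4.3e-06). IL-4 alone gave 2.84 (SE 0.93, adjusted p = 0.14 from edgeR), which was called with the mouse as replicate block (2.92, adjusted p = 0.011 from edgeR) and without mouse 1 (3.11, adjusted p = 0.024 from edgeR). This IL-4 rise was also called by DESeq2 (2.87, adjusted p = 0.0042), with only the groups compared (2.83, adjusted p = 0.0092 from edgeR) and with no filter on low counts. It was not called with other scalings, a filter on CPM, or without mouse 2 or 3. The remainder exceeded the difference by 1.88 (SE 0.45, adjusted p = 0.026) from edgeR and IL-4 alone by 4.38 (SE 0.54, adjusted p = 4.6e-05, and 4.99 without mouse 2). The call between the parts was lost without mouse 3 (adjusted p = 0.20 from edgeR) and with only the groups compared (adjusted p = 0.086 from edgeR).

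*Ccl17* (the other CCR4 ligand, ENSMUSG00000031780, chr8:94810453-94812036) was lower in level and more variable between mice. It had 0, 0 and 0 counts in untreated cells of mouse 1, 2 and 3, 9, 3 and 0 with IL-4, 13, 4 and 1 in the difference and 76, 15 and 22 in the remainder. Only the remainder had 15 counts or more in every mouse, and it was at least 13.1-fold higher than untreated cells (adjusted p = 0.0018 from edgeR), or at least 6.21-fold without mouse 1. Against IL-4 alone it was higher by 3.16 (SE 0.84, adjusted p = 0.018) from edgeR, a call lost without mouse 3 (adjusted p = 0.092 from edgeR). *Ccl17* was tested only because of its remainder reads, so these calls were favoured by the filter. The difference was at least 1.96-fold higher than untreated cells with an adjusted p of 0.090 from edgeR, and 0.011 with the mouse as replicate block. Between the parts the log2 fold change was 2.64 with an adjusted p of 0.080 from edgeR, and 0.0087 with the block.

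*Ccl24* (eotaxin-2, an eosinophil attractant through CCR3), named after its values were seen, had few reads and reached 10 counts in the remainder alone, with 5, 3 and 3 counts in untreated cells, 6, 7 and 7 with IL-4, 4, 2 and 6 in the difference and 21, 16 and 11 in the remainder. It was higher in the remainder than in untreated cells, 2.16 (SE 0.42, adjusted p = 0.0017) from edgeR, and than in the difference, 1.96 (SE 0.42, adjusted p = 0.014). These calls were favoured by the filter, since *Ccl24* was tested only because of the remainder. The call between the parts was lost without mouse 1, 2 or 3 (adjusted p = 0.19, 0.081 and 0.060 from edgeR).

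Markers of dendritic cells, which also make *Ccl17* and *Ccl22*, moved beside these genes. The summed level of the 7 markers was 22.7 to 28.4 CPM in untreated cells, 157 to 203 CPM with IL-4, 64.2 to 72.9 CPM in the difference and 248 to 274 CPM in the remainder, where 4 of 5 tested markers were called higher and 1 lower. Most of the sum was *Itgax*, with means of 23.1, 176, 58.5 and 244 CPM in the 4 groups, a gene that macrophages also express. *Fscn1* (fascin, an actin-bundling protein of mature dendritic cells) had means of 0.558, 0.657, 4.25 and 8.05 CPM and the list's *Ccr7* 0.257, 0.405, 4.05 and 11.3 CPM, the same order of groups as *Ccl22*, and both were called higher in both parts. *Zbtb46* had another order, with means of 0.372, 0.728, 0.472 and 1.13 CPM, and against untreated cells was called higher in the remainder only. *Xcr1* had too few reads to be tested, with means of 0.239, 0.207, 0.323 and 0.124 CPM, lowest in the remainder. *Cd209a* was the marker called lower, at 1.09 CPM in untreated cells and at most 0.0621 CPM in the parts. *Flt3*, a receptor of dendritic cell precursors, had means of at most 0.213 CPM, and no marker of the list was at 0 in every library. The part of these markers in the levels of *Ccl17* and *Ccl22* was not tested.

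The CCR2 ligands *Ccl2*, *Ccl7* and *Ccl12* and the CCR8 ligand *Ccl8*, which lie in 81.2 kb of chromosome 11 (chr11:82035571-82116799) around *Ccl11*, a gene with no reads here, were higher in the remainder. *Ccl2* (the main monocyte attractant, chr11:82035571-82037453) stood at 1.18, 1.42 and 1.88 CPM in untreated cells, 1.62, 2.43 and 2.16 CPM with IL-4, 4.18, 1.40 and 0.582 CPM in the difference and 10.3, 4.12 and 4.99 CPM in the remainder. *Ccl7* (a monocyte attractant, chr11:82045712-82047525) stood at 0.914, 0.386 and 0.564 CPM in untreated cells, 0.659, 0.895 and 1.80 CPM with IL-4, 0.973, 0.183 and 0.291 CPM in the difference and 5.65, 2.95 and 3.81 CPM in the remainder. For *Ccl7* every remainder library lay above all 9 others, and for *Ccl2* the difference of mouse 1 overlapped the remainder.

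*Ccl12* (a further CCR2 ligand, chr11:82101845-82103400) had 9, 4 and 7 counts in untreated cells, 7, 9 and 5 with IL-4, 21, 2 and 8 in the difference and 71, 39 and 56 in the remainder. *Ccl8* (in mice a ligand of CCR8, chr11:82115185-82116799) had 1, 0 and 2 counts in untreated cells, 1, 3 and 5 with IL-4, 8, 4 and 3 in the difference and 54, 46 and 78 in the remainder. For both genes all remainder libraries lay above the 9 others, and *Ccl8* reached 10 counts in the remainder alone.

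Against untreated cells the remainder was higher by 2.12 (SE 0.50, adjusted p = 0.0064) for *Ccl2*, 2.69 (SE 0.47, adjusted p = 0.00072) for *Ccl7* and 3.11 (SE 0.48, adjusted p = 0.00025) for *Ccl12*, and at least 20.8-fold for *Ccl8* (adjusted p = 3.3e-06), all from edgeR. *Ccl12* and *Ccl8* were tested only because of their remainder reads, so calls of the remainder as higher were favoured by the filter. None of the 4 genes was called in the difference, where their adjusted p ranged from 0.064 to 0.73 from edgeR. The parts themselves differed in *Ccl7* (3.03 (SE 0.49, adjusted p = 0.0023)), *Ccl12* (2.42 (SE 0.45, adjusted p = 0.0055)) and *Ccl8* (3.55 (SE 0.43, adjusted p = 0.00018)) from edgeR, and *Ccl2* was not called (1.61, adjusted p = 0.074 from edgeR). The calls of *Ccl7* and *Ccl12* between the parts were lost without mouse 3, with an adjusted p of 0.098 for *Ccl7* and 0.22 for *Ccl12* from edgeR, whereas *Ccl2* was called without mouse 1 (2.15, adjusted p = 0.0085 from edgeR). Without mouse 1 the value against untreated cells was 1.46 for *Ccl2*, and those between the parts were 3.81 for *Ccl7* and 3.15 for *Ccl12*.

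**Figure D4:**
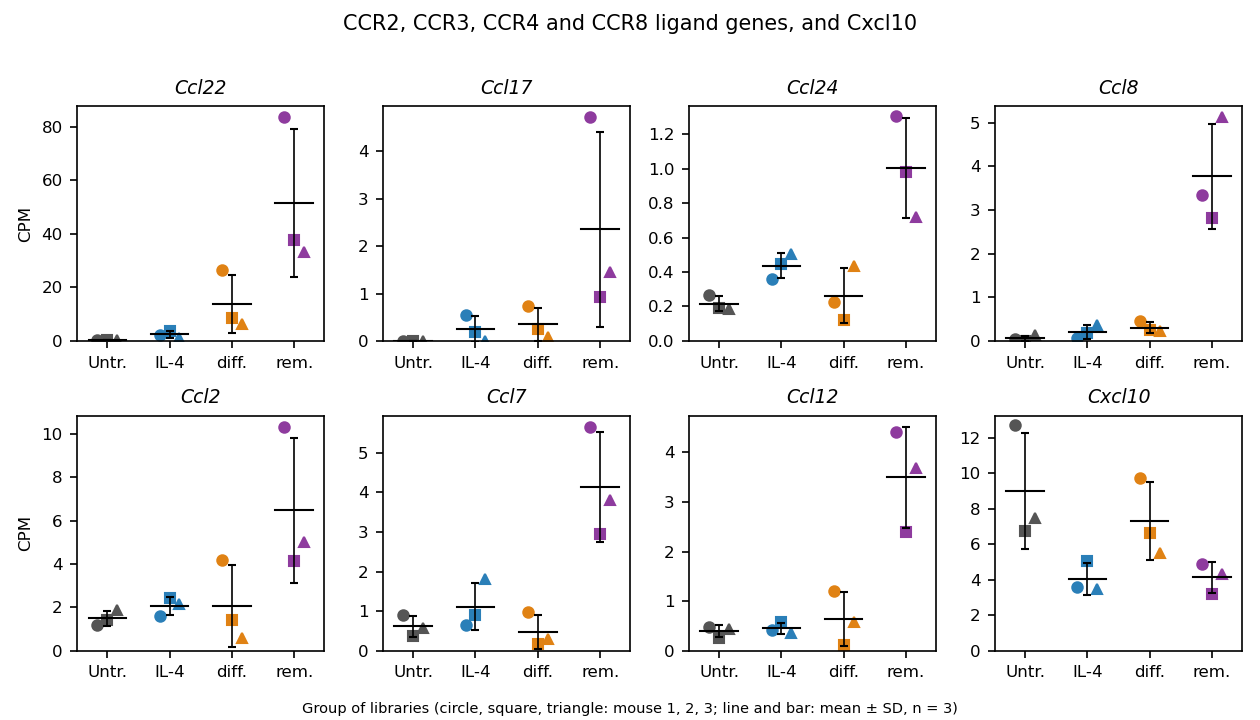
CPM (vertical axes, from 0, a scale for each gene) of *Ccl22*, *Ccl17*, *Ccl24*, *Ccl8*, *Ccl2*, *Ccl7*, *Ccl12* and *Cxcl10* in 4 groups (Untr., untreated; diff., difference; rem., remainder), with a point per mouse and the mean ± SD (n = 3). The remainder is the highest group in all panels but that of *Cxcl10*, where the untreated cells and the difference are highest, and mouse 1 (circle) is the highest remainder library in each panel but that of *Ccl8*.

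The CXCR3 ligands *Cxcl9* and *Cxcl10* are neighbours in 27.5 kb of chromosome 5 and are both known as interferon-induced genes. In the remainder, against untreated cells, *Cxcl9* was higher and *Cxcl10* lower. *Cxcl10* (chr5:92346638-92348889) stood at 12.7, 6.75 and 7.46 CPM in untreated cells, 3.60, 5.05 and 3.46 CPM with IL-4, 9.73, 6.66 and 5.53 CPM in the difference and 4.91, 3.20 and 4.34 CPM in the remainder. The IL-4 and remainder libraries lay below the untreated ones, and the difference overlapped the untreated cells. It was lower with IL-4, -1.16 (SE 0.28, adjusted p = 0.034) from edgeR, and in the remainder, -1.12 (SE 0.28, adjusted p = 0.0080). The IL-4 call was lost without mouse 1 (-0.73, adjusted p = 0.19 from edgeR) or mouse 3 (adjusted p = 0.30 from edgeR), and that of the remainder without mouse 3 (adjusted p = 0.056 from edgeR). In the difference it was -0.30 (adjusted p = 0.46 from edgeR), and 5.91% of its exon bases overlap *Art3* on the other strand. *Cxcl9*, named after its values were seen, had 8, 6 and 5 counts in untreated cells, 2, 3 and 2 with IL-4, 30, 26 and 21 in the difference and 17, 28 and 16 in the remainder, and was higher than untreated cells in both parts, 2.07 (SE 0.31, adjusted p = 0.00023) and 1.74 (SE 0.32, adjusted p = 0.00100) from edgeR. *Cxcl9* was tested only because of its reads in the parts, so these calls were favoured by the filter. With IL-4 *Cxcl9* was at least 1.92-fold lower, with an adjusted p of 0.26 from edgeR.

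Of the homeostatic chemokines, *Cxcl12* and *Cxcl14* were lower in both parts and *Ccl25* (the CCR9 ligand) and *Ccl27a* (a CCR10 ligand, with 45% of its 50-base stretches in other genes) were not called. *Cxcl12*, the ligand of CXCR4, had 11, 19 and 13 counts in untreated cells, the only group in which it reached 10, and at most 3 counts in each Wnt3a-treated library, which is at least 4.59-fold lower in the difference (adjusted p = 0.0021 from edgeR) and at least 4.63-fold lower in the remainder (adjusted p = 0.0026 from edgeR). *Cxcl12* was tested only because of its untreated reads, so a call lower than untreated cells was favoured by the filter. The log2 fold change of *Cxcl14* was -0.64 in the difference against -0.85 in the remainder (adjusted p = 0.0073 and 0.00091 from edgeR). The members with no read in any library were *Ccl1*, *Ccl11*, *Ccl19*, *Ccl20*, *Ccl21a*, *Ccl21b*, *Ccl26*, *Ccl27b*, *Cxcl13*, *Cxcl15*, *Cxcl17* and *Xcl1*. With 0 counts in a library, up to 3 counts in that library remain possible.

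Against IL-4 alone, 17 members were called in the remainder, 13 higher (10.6% of all genes) and 4 lower (9.67%), against 20.3% of all genes tested. In the difference 11 were called, 7 higher (10% of all genes) and 4 lower (10.3%), against 20.3%. Higher in both were *Ccl5* (7.40 in the remainder and 7.53 in the difference), *Ccl22* (4.38 and 2.49, the latter 1.58 without mouse 1 and 3.16 without mouse 2), *Pf4* (2.41 and 1.95) and *Cxcl16* (0.98 and 0.91), with *Cxcl3* at least 33.7-fold and 44.7-fold and *Cxcl9* at least 6.51-fold and 8.22-fold higher. Lower in both were *Ccl4* (-1.45 and -1.51), *Cx3cl1* (-1.23 and -1.38) and *Cxcl14* (-0.80 and -0.59). The remainder alone was also called for *Ccl8* (4.21), *Ccl12* (2.92), *Ccl7* (1.91), *Ccl2* (1.65), *Ccl9* (0.63), *Ccl24* (1.20) and *Ccl3* (-0.83), beside *Ccl17*. Of these, *Ccl8*, *Ccl12*, *Ccl24* and *Ccl17* were tested only because of the remainder. *Cxcl3* and *Cxcl9* were tested only because of the parts, so their calls were favoured by the filter too. In the difference *Cxcl10* was higher (0.86 (SE 0.28, adjusted p = 0.044) from edgeR) and *Cxcl12* lower (adjusted p = 0.0498 from edgeR). Without mouse 3 the calls of *Cx3cl1* in both parts (adjusted p = 0.19 and 0.094 from edgeR), *Ccl9* (0.14), *Ccl2* (0.080), *Cxcl10* (0.18) and *Cxcl14* in the difference (0.057) were lost. Without mouse 1 those of *Ccl2* (0.064), *Cxcl10* (0.18) and *Cxcl14* in the difference (0.069) were, and *Ccl3* (-0.58) and *Ccl7* (-2.48) were called lower in the difference. Those of *Ccl24* and *Cxcl12* were lost when each of the 3 mice was left out in turn (adjusted p from 0.082 to 0.33 for *Ccl24* and from 0.0501 to 0.42 for *Cxcl12*, from edgeR) and with the mouse as replicate block (0.060 and 0.082).

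Whether IL-4 acted on the members differently with Wnt3a depends on which part is the Wnt3a+IL4 culture. Under the first assignment, 0 of 25 members were called for this interaction by edgeR, against 0.105% of all genes (13 genes, 0.0403% higher and 0.0644% lower), while 5 members had an unadjusted p under 0.05, against 12.7% of all genes, and DESeq2 called 1, *Ccl4*, of 165 genes in all. Under the other assignment 8 were called, 3 higher (2.91% of all genes) and 5 lower (4.42%), against 7.33% in either direction. The highest were *Cxcl10* (1.98 (SE 0.39, adjusted p = 0.0058)) and *Ccl3* (1.43 (SE 0.17, adjusted p = 8.5e-05)), and the lowest *Ccl8* (-5.14 (SE 1.04, adjusted p = 0.0064)), *Ccl22* (-4.72 (SE 1.01, adjusted p = 0.0098)) and *Ccl7* (-3.82 (SE 0.74, adjusted p = 0.0048)), all from edgeR. Without mouse 3 only 2 of these calls were made, and *Ccl8*, *Ccl7* and *Cxcl10* were not among them (adjusted p = 0.13, 0.20 and 0.075 from edgeR). Without mouse 1 the values were -6.02 for *Ccl8*, -5.33 for *Ccl22* and -5.29 for *Ccl7*, and without mouse 2 that of *Ccl22* was -4.10. Neither value of *Ccl8* is a measured size or fixes its rank, since its untreated libraries had 3 counts or fewer. *Ccl17* and *Ccl22*, the CCR4 ligands, had first-assignment values of -2.44 and -0.96 (adjusted p = 0.76 and 0.79 from edgeR). The *Ccl17* value has no size of its own, since its untreated libraries are at 0.

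Mouse 1 most often had the highest level of a member in every group but IL-4. In the difference 19 of 25 members were highest in mouse 1, against 39.6% of all genes tested, and in the remainder 19, against 37.2%. In untreated cells 14 were highest in mouse 1 (33.9% of all genes), and with IL-4 7 (39.7%). In the remainder *Ccl17* of mouse 1 stood at 4.72 CPM against 0.922 and 1.45 CPM, and *Ccl22* at 83.6 CPM against 37.7 and 33.4 CPM.

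Of 23 chemokine receptor genes, 9 were tested. With IL-4, 3 were called, 1 higher and 2 lower. In the difference 4 were called, 3 higher and 1 lower, and in the remainder 5, 3 higher and 2 lower, beside the shares of all genes given above. *Ccr7*, the receptor that guides cells to lymph nodes, stood at 0.322, 0.322 and 0.125 CPM in untreated cells, 0.479, 0.447 and 0.289 CPM with IL-4, 6.47, 3.42 and 2.25 CPM in the difference and 19.8, 6.94 and 7.23 CPM in the remainder, with log2 fold changes against untreated cells of 3.94 (SE 0.63, adjusted p = 0.00039) and 5.41 (SE 0.59, adjusted p = 1.0e-05) in the parts, from edgeR. *Ccr1*, a receptor of *Ccl5*, *Ccl3* and *Ccl9*, stood at 2.74, 1.80 and 2.32 CPM in untreated cells, 5.63, 6.52 and 6.13 CPM with IL-4, 24.2, 15 and 13.2 CPM in the difference and 18.8, 14.2 and 20.7 CPM in the remainder. Its levels in the parts overlapped each other and lay above all IL-4 libraries, which lay above all untreated ones.

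*Cx3cr1*, the receptor of *Cx3cl1*, stood at 319, 299 and 289.8 CPM in untreated cells, 165, 123 and 124 CPM with IL-4, 244, 265 and 256 CPM in the difference and 86.3, 79.0 and 118 CPM in the remainder. It was lower with IL-4 (-1.14 (SE 0.14, adjusted p = 0.00022) from edgeR) and in the remainder (-1.68 (SE 0.14, adjusted p = 7.9e-07)), and lower in the remainder than in the difference (-1.44 (SE 0.14, adjusted p = 3.4e-05)). *Cxcr3*, the receptor of *Cxcl9* and *Cxcl10*, was lower than in untreated cells in all 3 of the other groups, with log2 fold changes of -1.18 with IL-4, -0.70 in the difference and -1.56 in the remainder (adjusted p at most 0.0038 from edgeR). *Cxcr4*, the receptor of *Cxcl12*, rose by 0.25 and 0.27 on the log2 scale in the difference and the remainder (adjusted p = 0.030 and 0.021 from edgeR).

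The cells carried the markers of macrophages. The summed level of 8 macrophage markers was 51224 to 58374 CPM in untreated cells, 43979 to 52227 CPM with IL-4, 58397 to 68614 CPM in the difference and 57461 to 57903 CPM in the remainder, with 4 of the 8 called higher in the difference and 2 in the remainder. T and NK cell markers summed to at most 0.263 CPM in any library, with *Ncr1* and *Trac* at 0 throughout, beside the rise of *Ccl5*, which those cells also make. Neutrophil markers summed to 48.9 to 61.2 CPM in untreated cells, 64.7 to 75.2 CPM with IL-4, 35.7 to 56.5 CPM in the difference and 32.0 to 36.3 CPM in the remainder, with *Ly6g* at 3 counts or fewer in every library and of the 6 tested, 0 called higher in any group, 1 lower in the difference and 4 lower in the remainder. Stromal and endothelial markers, of cells that make *Cxcl12*, summed to 6.99 to 18.5 CPM in untreated cells, 8.21 to 28.4 CPM with IL-4, 4.22 to 9.89 CPM in the difference and 4.67 to 15.3 CPM in the remainder, with *Lum*, *Pdgfra* and *Lepr* at 3 counts or fewer in every library. Their part in the fall of *Cxcl12* was not tested. The B cell list was almost wholly *Ighm*, at 73.3 to 81.1 CPM in untreated cells, 31.4 to 43.5 CPM with IL-4, 5.09 to 10.7 CPM in the difference and 4.72 to 6.18 CPM in the remainder. The 1 tested marker of that list was called lower with IL-4 and in both parts. Eosinophil, basophil and mast cell markers summed to at most 0.794 CPM.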

How the data were processed

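RNA of BMDMs from 3 mice was sequenced in 4 groups of 3. To make the deposited raw counts per gene, the authors trimmed single reads (Trimmomatic 0.36), aligned them to mm10 (STAR 2.6.0) and counted them on genes (HTSeq 0.11.1), versions being those in the submitters' processing notes. Their DESeq2 settings had no term for the mouse. Whether counting used strand is not given in the sources used here.

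The difference and the remainder were computed from the deposited counts. The 12421 genes that reached 10 counts in 3 or more of the 12 libraries were fitted together with edgeR 4.0.16 in R 4.3.3 (TMM, quasi-likelihood test, Benjamini-Hochberg adjustment over all genes tested, threshold 0.05), after testing on simulated data. Total counts of 13342492 to 17453377 per library set the precision. GENCODE's mm10 annotation gave positions, exon lengths, overlaps and 50-base stretches shared between genes, and RefSeq gave promoters.

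Members given in every library were those called with a log2 fold change of 1 or more in size in 1 of 6 comparisons and a highest group mean of 2 CPM or more, plus *Ccl17* and *Ccl2*. *Cxcl16*, *Ccl24* and *Cxcl9* are also given in every library, outside this rule. Receptor and marker lists were written by hand, and the members and lists were chosen with earlier results of these data known. Alternatives were DESeq2 1.42.0, other scalings, filters and thresholds, only the groups compared, the deposited columns, a replicate block for the mouse, and leaving out each mouse. The labels pair the samples by mouse. In 18 pairs of same-mouse libraries, the correlation across genes of their deviations from the group means ran from -0.565 to 0.541, and 6 exceeded 0.1. *Ccl21c* and *Ccl27* were not analysed here. From the receptor and marker lists, 1 receptor and 1 B cell marker are not reported here.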

Additional observations from a re-analysis of the deposited data

Results flagged for a closer look

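Under the other assignment, which takes the difference as the Wnt3a+IL4 culture, 8 members had an IL-4 effect that depended on Wnt3a, by a test of the difference itself (interaction in edgeR's quasi-likelihood fit). The interaction was positive for *Cxcl10* (1.98 on the log2 scale, adjusted p = 0.0058), *Ccl3* (1.43, adjusted p = 8.5e-05) and *Ccl4* (0.86, adjusted p = 0.012) from edgeR. It was negative for *Ccl8* (-5.14, adjusted p = 0.0064), *Ccl22* (-4.72, adjusted p = 0.0098), *Ccl7* (-3.82, adjusted p = 0.0048), *Ccl24* (-2.92, adjusted p = 0.012) and *Ccl9* (-0.79, adjusted p = 0.028) from edgeR. The value of *Ccl8* is not a measured size, since its untreated libraries had 3 counts or fewer. *Ccl8* and *Ccl24* were also tested only because of the remainder. Under the first assignment none of the 8 members was called by edgeR. Which part is the Wnt3a+IL4 culture cannot be told apart from the labels. Without mouse 3 the calls of *Cxcl10*, *Ccl4*, *Ccl8*, *Ccl7*, *Ccl24* and *Ccl9* were lost, and *Ccl4* was also lost without mouse 1 and *Ccl24* without mouse 1 or 2.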

How the results depend on the processing

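In the members chosen by the rule above, with *Ccl17* and *Ccl2*, 59 values were called. Over 800 alternative values, 718 kept their direction and their call, 82 kept the direction without the call and 0 reversed. An alternative in which the gene was not tested, or for which no fit was made, gave no value. The called members *Ccl24*, *Cxcl12*, *Cxcl9*, *Cxcl16*, *Ccl6* and *Cxcl14* are outside this count. Of the 82, leaving out mouse 3 gave 19 with the filter applied anew and 20 with the same genes tested, and the deposited columns gave 15. Counts of members called moved by more than 1.5 times as follows, with the reported count first and, after each "of", the count over all genes. With IL-4 alone (3 of 422), the count was 8 of 812 with no filter on low counts, 5 of 391 with the mouse as replicate block, 5 of 407 with only the groups compared, 5 of 557 with DESeq2 and 1 of 133 at a log2 fold change of at least 1 in size. Between the parts (6 of 652), it was 12 of 1454 with no filter, 0 of 0 with the deposited columns, which share reads, 3 of 422 with only the groups compared and 3 of 279 at an adjusted p under 0.01. For the interaction under the first assignment (0 of 13), it was 3 of 575 with no filter, 2 of 142 with the deposited columns and 1 of 165 with DESeq2, and under the other assignment (8 of 910), 13 of 1505 with no filter, 2 of 311 with the deposited columns and 5 of 472 at an adjusted p under 0.01. Beyond the calls given with the results above, the replicate block added *Ccl12*, *Ccl17* and *Ccl6* to the interaction under the other assignment, a count of 11, and *Ccl9* to the difference against IL-4.

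Leaving out each mouse in turn gave 1 to 3 calls with IL-4 alone, 11 to 12 in the difference and 15 to 20 in the remainder against untreated cells, 0 to 5 between the parts, 11 to 16 in the remainder and 7 to 10 in the difference against IL-4, and 0 to 0 and 2 to 9 for the interaction under the first and the other assignment. The lowest of these came without mouse 3 for IL-4 alone, the parts, both comparisons with IL-4 and the interaction under the other assignment. The fits that kept the same genes tested were chosen after seeing the data. For *Cxcl1* and *Ppbp*, at 1 to 15 counts a library, the lack of a call does not show that their levels were alike, and members with as few counts, such as *Ccl24* and *Cxcl12*, were called.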
